A study of Homo sapiens with 4 samples.

Results

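The 9 genes described here, CDKN1A, MDM2, BBC3, BAX, TP53INP1, SESN1, FAS, PHLDA3 and ZMAT3, are transcriptional targets of the tumour suppressor p53. They were chosen by gene symbol as a check of DNA damage signalling under azacytidine, and all 9 were found among the 77973 genes of the deposited gene table. A mean of 5 reads per library or more was reached by 13789 genes and by all 9 members. A mean of 20 or more was reached by 8145 genes and by 4 members, MDM2, TP53INP1, SESN1 and ZMAT3.

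Complementary DNA copies of polyadenylated RNA were sequenced as long PacBio reads (Iso-Seq) from cortical neurons of the i3N type. Every group used derivatives of 1 human induced pluripotent stem cell line, KOLF2.1J, in which doxycycline switches on the neuronal factor NGN2 and a dCas9-BFP-KRAB repressor (CRISPR interference) is made at all times. The control library came from cells with a non-targeting guide RNA, and the knockdown library from cells with a guide against TDP-43, the RNA-binding protein encoded by TARDBP. The azacytidine library came from neurons labelled Ctrl, as the control library was, with 5 µM 5-azacytidine in the medium for 72 hours. The combined library had both the drug and the TDP-43 guide. All cells had received a lentivirus and puromycin and were used as pools rather than single clones. The labels allow 2 harvest days and do not say which was used. Each group had 1 library. A test below therefore compares the reads of 2 libraries, not the conditions, and its intervals cover counting error only.

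The libraries held 595158 reads in genes in the control, 767621 in the knockdown, 466337 in the azacytidine and 477622 in the combined library. TARDBP, the gene aimed at, had 104, 72, 73 and 43 reads in the same order, and its log2 ratio with the guide was -0.67 without azacytidine and -0.73 with it. All 10 neuron markers were found, and their summed level ranged from 2490 to 3490 CPM (reads scaled to 1e6 reads of effective library size). They did not move as a group. With azacytidine, 3 were higher and 1 lower at an adjusted p under 0.05 without the knockdown (9.59% and 12.1% of all genes). In the knockdown background 2 were higher and 4 lower (13% and 21.2%). In the order above, MAP2 had 540, 761, 319 and 162 reads and GAP43 had 118, 126, 181 and 191. The 6 neural progenitor markers summed to 800 and 738 CPM without azacytidine and to 174 and 138 CPM with it. Among them PAX6 had 290, 313, 3 and 4 reads, and NES had 64, 53, 36 and 42. Mesenchymal markers summed to 80.7 and 84.6 CPM without the drug and to 14.2 and 4.13 CPM with it, and TWIST1 and DCN were at 0 in every library. Pluripotency markers summed to between 233 and 352 CPM, mostly from LIN28A, while POU5F1 and NANOG had at most 2 reads. DPPA4, of the same list, had 48, 40, 6 and 10 reads. Glial markers summed to between 33.6 and 54.6 CPM, with AQP4 at 0 in every library. The loss of progenitor, mesenchymal and DPPA4 reads runs along the same division of libraries as the drug, and its part in the values below was not tested. In bulk RNA, fewer cells of a type and less RNA per cell cannot be told apart.

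The protein p53 is kept scarce in unstressed cells because MDM2, itself made from a p53 target gene, marks it for destruction. DNA damage switches on the kinases ATM and ATR, which free p53 from MDM2, and p53 then binds a characteristic sequence near its target genes and raises their transcription. Its targets halt the cell cycle (CDKN1A), restrain p53 again (MDM2), trigger cell death (BBC3, BAX, FAS) or limit growth and oxidative stress (SESN1, TP53INP1, PHLDA3). Azacytidine is a cytidine analogue that is built into nucleic acids and traps DNA methyltransferases.

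The members did not move as 1 group with azacytidine. In the pair without the knockdown (azacytidine against control), 0 of 9 members passed an adjusted p of 0.05 in either direction, where 21.7% of all 13789 genes did. In the pair with the knockdown (combined against knockdown library), BBC3 alone was higher, against 13% of all genes, and MDM2, TP53INP1 and ZMAT3 were lower, against 21.2% of all genes. These counts of 1 and 3 out of 9 lie near those shares. With the trend of the ratios with transcript length removed, as described below, 0 of 9 were higher and 0 lower, against 14.8% and 17.3% of all genes. CDKN1A, the target most often read as a sign of p53 activity, had nearly the same level in all 4 libraries.

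**Figure D1:**
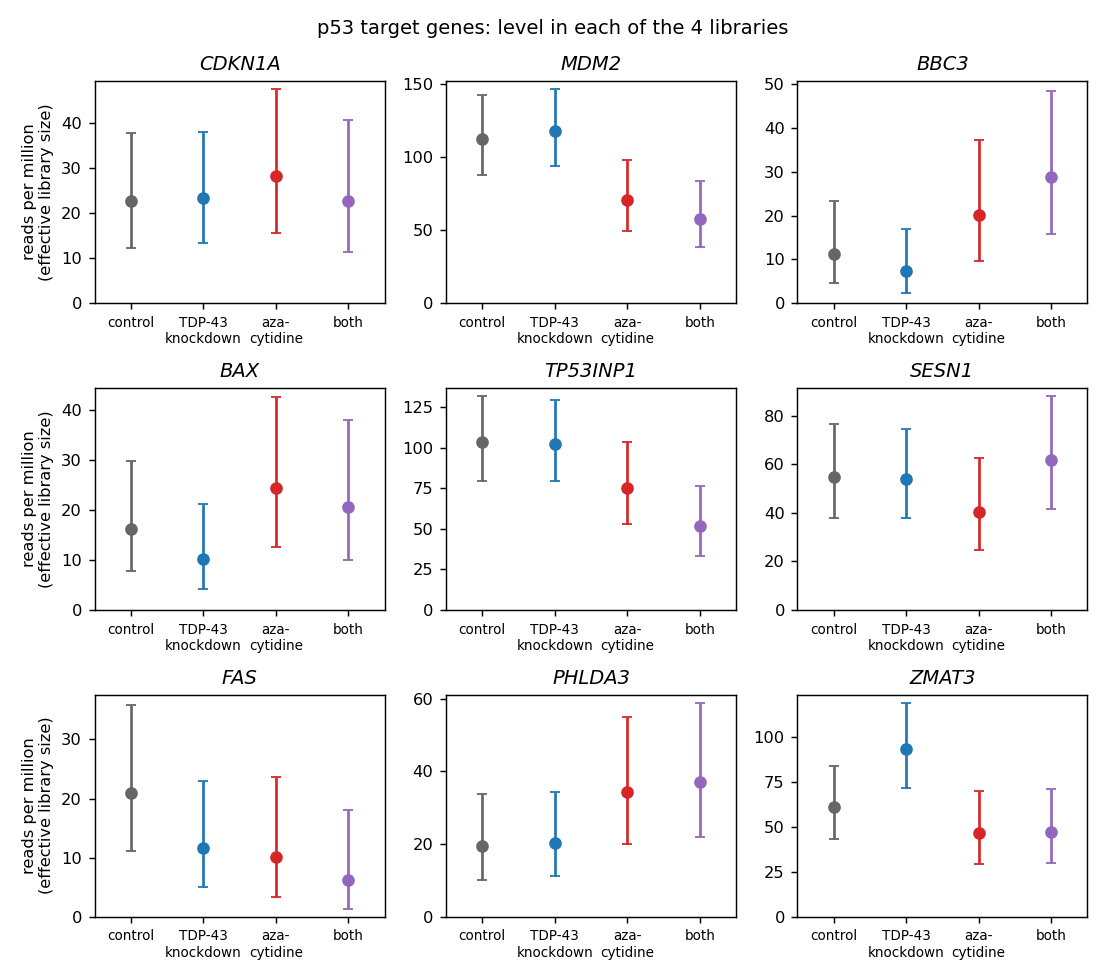
Level of each of the 9 genes in the 4 libraries, in CPM of effective library size, with bars for the exact 95% Poisson interval of the read number. CDKN1A lies between 22.6 and 28.3 in all 4 libraries. BBC3, BAX and PHLDA3 are higher in both libraries with azacytidine, and MDM2, TP53INP1, FAS and ZMAT3 are lower in both.

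CDKN1A (ENSG00000124762.15, hg38 chromosome 6, 36676460 to 36687397, plus strand) encodes p21, an inhibitor of cyclin-dependent kinases. It had 14 reads in the control, 16 in the knockdown, 14 in the azacytidine and 11 in the combined library. In CPM these were 22.6, 23.3, 28.3 and 22.7, so the azacytidine library was the highest and the other 3 differed by less than 1 CPM. The azacytidine ratio was 1.25 without the knockdown (95% exact interval 0.554 to 2.84, exact binomial p = 0.573) and 0.985 in the knockdown background (0.408 to 2.23, exact p = 1). With the reads of both drug libraries set against those of both others, a comparison added after the data were seen, the ratio was 1.11 (0.627 to 1.95). A rise above the upper ends of these intervals lies outside counting error, while a smaller one could not be seen at this depth. The direction of the first ratio depended on the table: the reads that could be placed in transcripts gave a log2 ratio of -0.35, against 0.33 for the gene table.

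MDM2 (ENSG00000135679.27, chromosome 12, 68808177 to 68845544, plus strand) encodes the ubiquitin ligase that removes p53. Its reads were 70 in the control, 81 in the knockdown, 35 in the azacytidine and 28 in the combined library, or 113, 118, 70.8 and 57.8 CPM. Both libraries with azacytidine lay below both without it. The log2 ratio was -0.66 without the knockdown (-1.30 to -0.07, exact binomial p = 0.0238, Benjamini-Hochberg adjusted p = 0.0899) and -1.02 in its presence (-1.71 to -0.40, exact p = 0.000863, adjusted p = 0.00415). Summed over both backgrounds the ratio was 0.559 (0.408 to 0.751). The drug ratios did not differ between backgrounds beyond counting error (difference -0.35, exact conditional p = 0.455). With the length trend removed, the call with the knockdown was lost (exact binomial adjusted p = 0.186). Both drug ratios lay below 0. The MDM2 reads placed in transcripts were nearly all assigned to the first promoter and few to the p53-responsive second one (below). Most of them were not full length, so their start is uncertain, and p53 activity was not tested.

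MDM2 can be transcribed from a pair of start sites, and the distinction bears on p53 because the element it binds lies in front of the second one, inside the first intron. The 250 bases in front of each start are shown from the RefSeq annotation of GRCh38.p14, read 5′ to 3′ on the plus strand. Capitals mark stretches that match the p53 consensus, searched as its 2 repeated parts side by side without a spacer, with at most 3 mismatches in 20 bases. The consensus reads the same on both strands.
MDM2 first promoter (chr12:68807927-68808176): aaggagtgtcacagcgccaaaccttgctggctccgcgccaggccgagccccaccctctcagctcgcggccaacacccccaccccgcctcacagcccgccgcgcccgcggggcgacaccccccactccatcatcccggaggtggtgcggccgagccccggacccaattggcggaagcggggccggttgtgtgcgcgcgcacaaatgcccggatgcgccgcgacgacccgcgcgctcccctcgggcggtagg
MDM2 second promoter (chr12:68808767-68809016): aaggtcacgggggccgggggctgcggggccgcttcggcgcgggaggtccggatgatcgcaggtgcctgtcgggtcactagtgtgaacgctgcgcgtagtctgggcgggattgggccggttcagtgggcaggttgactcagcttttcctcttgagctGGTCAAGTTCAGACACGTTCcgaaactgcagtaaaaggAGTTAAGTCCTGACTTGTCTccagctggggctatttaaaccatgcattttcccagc
The first window holds 0 matches and 33 CG dinucleotides, and the second 2 matches and 17 CG dinucleotides. The better match has 2 mismatches and begins 94 bases before the start. Matches with at most 3 mismatches occur in 4.36% of 35116 such windows, and with at most 2 in 0.561%. A match is a description of the letters, not of binding.

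Nearly all MDM2 reads placed in transcripts were assigned to the first promoter, but only 12.6% of them were full length. Of the reads placed in MDM2 transcripts, first exons of the first promoter (68808177 to 68808491) held 57 of 60 in the control, 71 of 74 in the knockdown, 32 of 33 in the azacytidine and 24 of 24 in the combined library. First exons of the second, p53-responsive promoter (68809002 to 68809086) held 3 of 60 reads (5.00%, 95% Wilson interval 1.71 to 13.7) and 2 of 74 (2.70%, 0.744 to 9.33) without the drug. They held 0 of 33 and 0 of 24 reads with it, which allows shares of up to 9.09% and 12.5%. So the second promoter was seen in 5 reads, all in libraries without azacytidine, and a difference in its share was not detectable at this depth. Reads that lack their 5′ end can be assigned to a wrong start. Among the 24 full-length MDM2 reads, 19 began at the first promoter and 3 at the second, and those 3 were again all from libraries without the drug. They were 2 of 10 full-length reads in the control and 1 of 6 in the knockdown library, so the shares of all placed reads are uncertain. By transcript, MDM2-202, with 11 exons and 7490 bases, took between 91.4% and 100% of the transcript reads.

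The other windows gave 2 further matches, shown because each lies in front of a start with no reads.
FAS match, 122 bases before 88991431 on chromosome 10: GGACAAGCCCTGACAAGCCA
SESN1 match, 49 bases before 109008988 on chromosome 6: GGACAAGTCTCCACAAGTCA
The FAS match has 2 mismatches to the consensus and the SESN1 match 3. The 9 deposited FAS transcripts that begin within 20 bases of that start had 0 reads in the 4 libraries, and so had the 1 SESN1 transcript. Windows of CDKN1A, BBC3, BAX and ZMAT3 held no match in these 250 bases. The BBC3 window lies before 47232667, where 0 deposited transcripts begin, while most BBC3 reads came from first exons at 47230929 to 47231204, whose upstream sequence was not searched. The elements known for CDKN1A lie farther upstream. The table held no window for PHLDA3 or TP53INP1.

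Of the genes that act in cell death, BBC3 (ENSG00000105327.18, chromosome 19, 47220822 to 47232766, minus strand) encodes PUMA, which neutralises the survival proteins of the BCL2 family. It had 7 reads in the control, 5 in the knockdown, 10 in the azacytidine and 14 in the combined library, or 11.3, 7.30, 20.2 and 28.9 CPM. Both libraries with azacytidine lay above both without it. The ratio was 1.76 without the knockdown (0.616 to 5.55, exact binomial p = 0.329, adjusted p = 0.549) and 3.73 in its presence (1.35 to 14.0, exact p = 0.00837, adjusted p = 0.0277). Summed over both backgrounds, 24 reads with the drug stood against 12 without it, a ratio of 2.61 (1.28 to 5.85). The call with the knockdown rested on 14 and 5 reads. It was lost when only reads placed in transcripts were used, at 8 against 5 reads (log2 ratio 1.09, exact binomial adjusted p = 0.385), and when genes of any depth were tested (adjusted p = 0.0740).

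BAX (ENSG00000087088.21, chromosome 19, 48954815 to 48961798, plus strand) encodes the protein that opens the outer mitochondrial membrane. It had 10 reads in the control, 7 in the knockdown, 12 in the azacytidine and 10 in the combined library, or 16.1, 10.2, 24.3 and 20.6 CPM. The drug libraries were again the upper 2, with ratios of 1.49 (0.596 to 3.89) and 1.98 (0.694 to 6.25), and neither passed the test (exact binomial p = 0.393 and 0.217). In reads placed in transcripts the first direction turned, with a log2 ratio of -0.24.

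FAS (ENSG00000026103.25, chromosome 10, 88953813 to 89029605, plus strand), the death receptor, was the sparsest member in the combined library. It had 13 reads in the control, 8 in the knockdown, 5 in the azacytidine and 3 in the combined library, or 21, 11.7, 10.1 and 6.19 CPM. The drug ratios were 0.511 (0.135 to 1.44) and 0.582 (0.0906 to 2.21), with exact binomial p-values of 0.235 and 0.542. FAS shares exon positions with ACTA2 on the opposite strand, which had 12, 7, 7 and 4 reads, and with STAMBPL1 on the same strand, which had 9, 16, 26 and 16. The sources used here do not say whether strand was used in the counting, so reads near these overlaps are uncertain.

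PHLDA3 (ENSG00000174307.7, chromosome 1, 201464278 to 201469237, minus strand) encodes a small protein that competes with the kinase AKT for membrane lipids. Its reads were 12 in the control, 14 in the knockdown, 17 in the azacytidine and 18 in the combined library, or 19.4, 20.4, 34.4 and 37.1 CPM. Both drug libraries lay above both others by a like amount. The ratio was 1.76 without the knockdown (0.80 to 4.08, exact binomial p = 0.137) and 1.80 in the knockdown background (0.854 to 3.95, exact p = 0.106). Summed over both backgrounds it was 1.79 (1.05 to 3.11, exact p = 0.0272, adjusted p = 0.0627), which did not pass the adjusted threshold. The same summed exact binomial test passed for MDM2 (adjusted p = 0.000308), TP53INP1 (ratio 0.620, adjusted p = 0.00518), ZMAT3 (ratio 0.605, adjusted p = 0.0114) and BBC3 (adjusted p = 0.0181). It was added after the data were seen and the length trend was left in. No share of all genes is given for it, so how these passes compare with all genes cannot be told.

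TP53INP1 (ENSG00000164938.14, chromosome 8, 94925972 to 94949378, minus strand) encodes a stress protein that promotes autophagy and further activates p53. Its reads were 64 in the control, 70 in the knockdown, 37 in the azacytidine and 25 in the combined library, or 103, 102, 74.9 and 51.6 CPM. The 2 libraries without the drug were level and both drug libraries lay below them. The log2 ratio was -0.46 without the knockdown (-1.09 to 0.14, exact binomial p = 0.133) and -0.97 in the knockdown background (-1.71 to -0.31, exact p = 0.00246, adjusted p = 0.00995). Reads placed in transcripts gave -0.74 for the latter (exact binomial adjusted p = 0.105), which ends the call. NDUFAF6 overlaps TP53INP1 exons on the opposite strand with 53, 62, 45 and 53 reads, so some reads of either gene may belong to the other.

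SESN1 (ENSG00000080546.14, chromosome 6, 108984309 to 109095097, minus strand) encodes sestrin 1, which restrains the growth kinase mTORC1 and limits peroxide stress. It had 34 reads in the control, 37 in the knockdown, 20 in the azacytidine and 30 in the combined library, or 54.8, 54.0, 40.5 and 61.9 CPM. The azacytidine library was the lowest and the combined library the highest. The log2 ratio of the drug was -0.42 without the knockdown (-1.31 to 0.40) and 0.20 with it (-0.55 to 0.93). The difference between these ratios was 0.63 and within counting error (exact conditional p = 0.269, adjusted p = 0.679).

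ZMAT3 (ENSG00000172667.11, chromosome 3, 178960121 to 179072215, minus strand) encodes an RNA-binding protein that controls splicing and RNA stability downstream of p53. Its reads were 38 in the control, 64 in the knockdown, 23 in the azacytidine and 23 in the combined library, or 61.3, 93.4, 46.5 and 47.5 CPM. The knockdown library stood above the other 3. The log2 ratio of the drug was -0.39 without the knockdown (-1.21 to 0.39, exact binomial p = 0.306) and -0.96 in the knockdown background (-1.73 to -0.27, exact p = 0.00447, adjusted p = 0.0164). Scaled to total reads the latter was -0.77 (exact binomial adjusted p = 0.0603), which ends the call. ZMAT3 also had the lowest p of any member for the knockdown itself, a log2 ratio of 0.60 without azacytidine (0.01 to 1.23, exact binomial p = 0.0469, adjusted p = 0.184) and 0.03 with it. With the length trend of that pair removed, as described below, the ratio of 0.60 became 0.20 (-0.39 to 0.83, exact binomial p = 0.546).

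**Figure D2:**
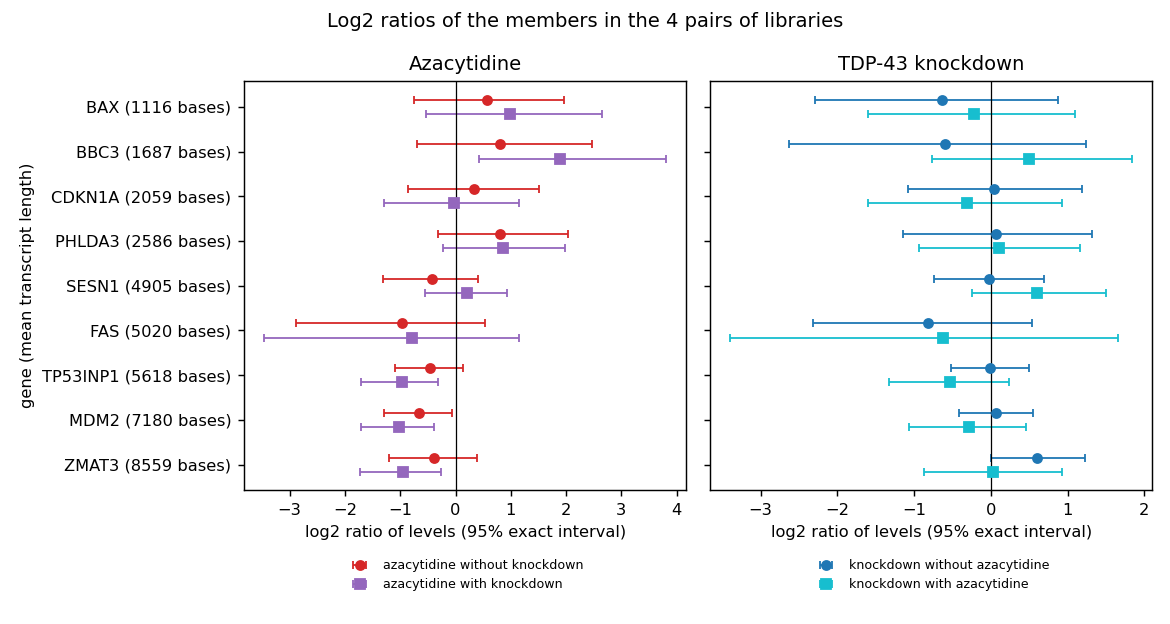
Log2 ratio of each gene in the 4 pairs of libraries, with exact 95% intervals, azacytidine on the left and TDP-43 knockdown on the right. Genes are ordered by mean transcript length, shortest at the top. In the left panel the intervals of BBC3, MDM2, TP53INP1 and ZMAT3 with the knockdown, and of MDM2 without it, exclude 0.

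A stricter rule asked both azacytidine pairs, which share no library, for an adjusted p under 0.05 in 1 direction and a log2 ratio no smaller in size than 1. At the minimum mean of 20 reads it called 0 of the 4 members, against 9.8% of genes. At the minimum mean of 5 reads it called 0 of 9, against 8.65%. For the knockdown the rule also called 0 of 4 and 0 of 9 members, against 0.97% and 0.776% of genes. In single knockdown pairs 0 of 9 members passed, against 14.8% of genes without azacytidine and 10.2% with it, and ZMAT3 was the only member at an unadjusted p under 0.05. No member had a drug ratio that differed between backgrounds at an adjusted p under 0.05, against 6.96% of genes. The median log2 ratio of the 9 members was -0.39 without the knockdown and -0.02 with it, beside 0.06 and -0.09 for all genes, and 4 of 9 members lay above 0 in each pair. Additive models, in which the interaction of drug and knockdown serves as error, called 0 of 9 members for the drug with edgeR (lowest adjusted p = 0.135), where 1 member, MDM2, had an unadjusted p under 0.05 and 6.14% of genes were called. DESeq2 called 0 of the 6 members to which it gave an adjusted p, with 0 at an unadjusted p under 0.05, against 1.47% of genes. For the knockdown edgeR called 0 of 9 members and 0% of genes, and DESeq2 0 of 4 members and 0.0725% of genes, with 0 members at an unadjusted p under 0.05 in both.

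The 3 members called lower with azacytidine under the knockdown have longer transcripts than BBC3, the one called higher. Weighted by reads, the mean transcript length was 1116 bases for BAX, 1687 for BBC3, 2059 for CDKN1A and 2586 for PHLDA3. It was 4905 bases for SESN1, 5020 for FAS, 5618 for TP53INP1, 7180 for MDM2 and 8559 for ZMAT3. Over all genes the median log2 ratio of the drug with the knockdown went from 0.26 for the 2830 genes under 2000 bases to -0.51 for the 2326 genes of 6000 bases or more. Without the knockdown it went from 0.33 to -0.18. For the knockdown against the control library the median went the other way, from -0.14 to 0.38. In the azacytidine pair with the knockdown, 12.1% of the shortest class and 39.4% of the longest were called lower. A smooth curve of the log2 ratio against length over all genes was then subtracted, and the exact test was repeated against the ratio the curve gives at each gene's length, a repeat chosen after the data were seen. The log2 ratios with the knockdown became -0.54 for MDM2 (-1.24 to 0.07), -0.64 for TP53INP1 (-1.38 to 0.02), -0.42 for ZMAT3 (-1.20 to 0.27) and 1.53 for BBC3 (0.06 to 3.44). None of the 4 passed any longer, with exact binomial adjusted p-values of 0.186, 0.131, 0.422 and 0.0954 in that order. MDM2, TP53INP1 and ZMAT3 also moved by over 1.5 times in log2 size, and all 4 kept their direction. PHLDA3, which had not passed before, was at 0.69. Completeness of reads differed between libraries as well: full-length reads were 18.0% of gene reads in the control, 13.6% in the knockdown, 24.3% in the azacytidine and 18.9% in the combined library. Its part in the members' ratios was not tested.

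**Figure D3:**
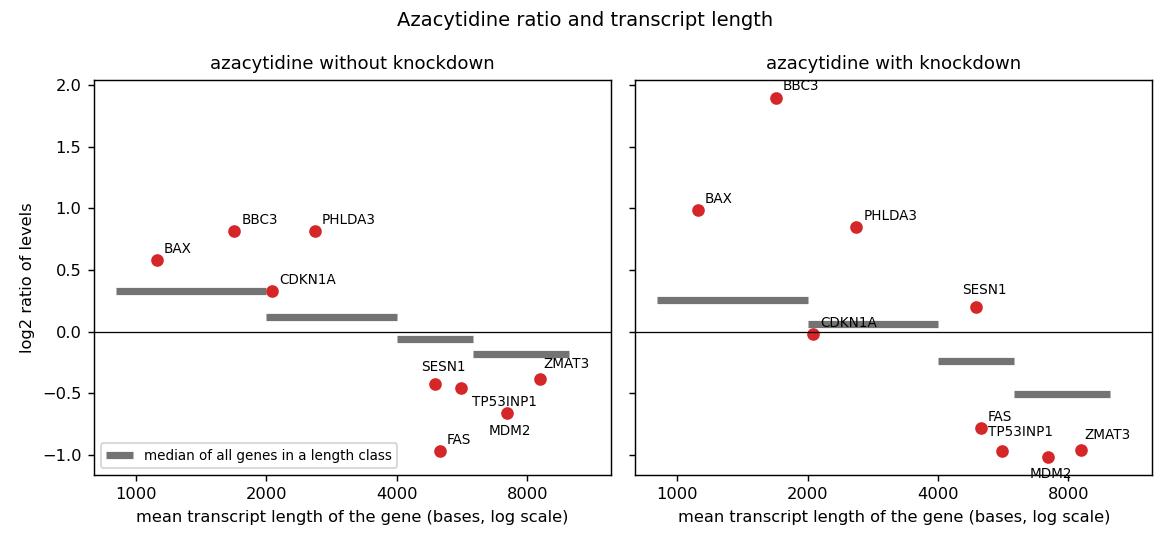
Log2 ratio of azacytidine against mean transcript length (log axis), without the knockdown on the left and with it on the right. Red points are the 9 members and grey bars the medians of all genes in 4 length classes divided at 2000, 4000 and 6000 bases (the outer ends of the outermost bars are drawn for display). BAX, BBC3 and PHLDA3 lie above the bar of their class in both panels, and MDM2, TP53INP1, FAS and ZMAT3 below it.

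The isoforms of the members were then compared. Of the reads counted for members, 87.1% were placed in transcripts, against 62.2% over all genes, and 27.5% of the placed reads were full length. That share ran from 6.99% for ZMAT3 and 12.6% for MDM2 to 78.8% for PHLDA3. Enough reads for a test of transcript usage were found for 6 transcripts of 4 members, and 0 were called for the drug or the knockdown, against 1.1% and 0.688% of 15834 transcripts. First exon usage could be tested for 4 groups of first exons in 3 members, and 0 were called, against 0.804% and 0.364% of 7957 groups. The ZMAT3 group held 100% of reads in every library, so its test could not show a shift. The distal and proximal sets of SESN1 mirror each other and count as a single test. The second MDM2 promoter had fewer than the 10 reads needed and was not tested.

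SESN1 reads came from a distal and a proximal set of first exons. The distal set (109093795 to 109095097) held 15 of 24 transcript reads in the control, 28 of 33 in the knockdown, 16 of 19 in the azacytidine and 18 of 23 in the combined library. The control library thus had the lowest share, 62.5% (42.7 to 78.8), and the other 3 lay between 78.3% and 84.8%. None of the differences passed the test: the proximal exon (109009359 to 109009555) fell short with an unadjusted Fisher's exact p of 0.0673 for the knockdown without azacytidine and 0.174 for the drug without the knockdown. The transcripts behind these sets were SESN1-204, with 13.6, 21.3, 15.1 and 14.5 estimated reads, and SESN1-202, with 9.09, 4.57, 2.75 and 4.84. A further 13.1 reads in all belonged to 2 unannotated transcripts that begin in the distal set.

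CDKN1A showed a like division on fewer reads. First exons at 36678710 to 36678939 held 10 of 12, 9 of 12, 7 of 8 and 7 of 7 transcript reads, and an upstream set at 36676460 to 36676524 held 2, 3, 1 and 0. The gene had too few reads for the usage test. The main transcript CDKN1A-201 took 61.9% of all its transcript reads, and DINOL, a long non-coding RNA gene on the opposite strand, had 0 reads.

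**Figure D4:**
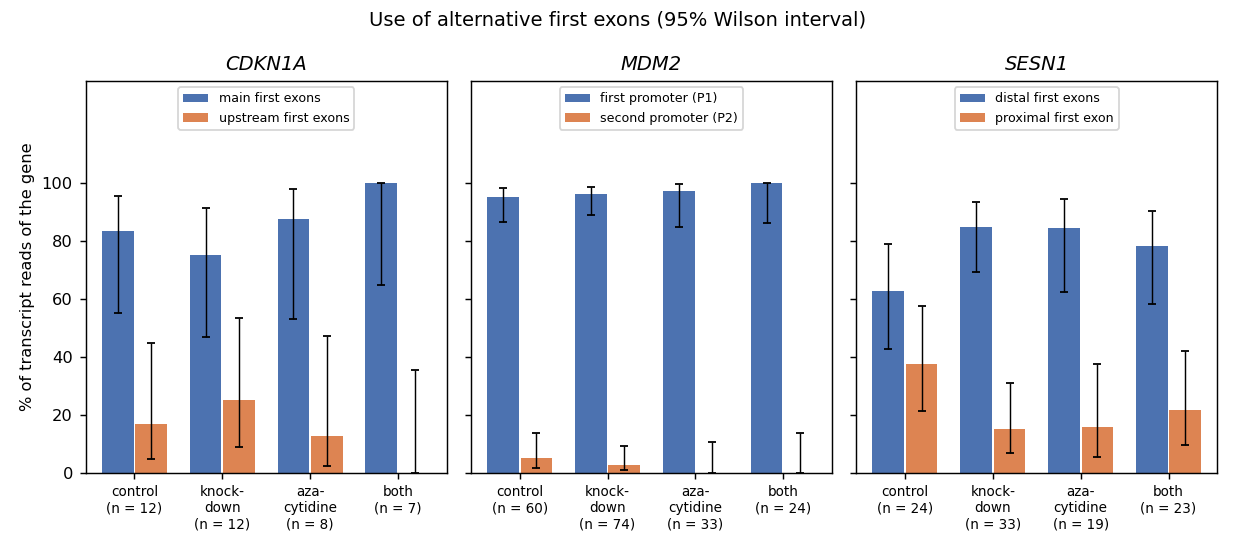
Share of a gene's transcript reads that fell in each set of first exons, by library, with 95% Wilson intervals and the number of transcript reads under each library. The second MDM2 promoter has 5.00% and 2.70% of reads without azacytidine and 0 with it, and the distal set of SESN1 is at 62.5% in the control and between 78.3% and 84.8% elsewhere.

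In TP53INP1 the 2 annotated transcripts share a first exon and differ in exon number, 4 in TP53INP1-201 and 5 in TP53INP1-202. TP53INP1-201 held 57.1% of transcript reads in the control, 50.0% in the knockdown, 30.0% in the azacytidine and 50.0% in the combined library. The azacytidine library was the one that stood apart. With reads rounded to whole numbers for the test, its share of TP53INP1-201 differed from the control by -29.2 percentage points (Fisher's exact p = 0.00645, adjusted p = 0.0879). TP53INP1-202 mirrors it, and its difference was 26.4 points (Fisher's exact p = 0.0201, adjusted p = 0.190), unequal in size through the rounding. With the knockdown the difference was -2 points for each transcript, also from rounding, since the shares were 50.0%. The shift thus did not repeat. Most of these reads were divided between the transcripts by estimation. Reads that fitted TP53INP1-201 alone numbered 8, 7, 3 and 3, and those of TP53INP1-202 alone 6, 7, 7 and 3.

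The remaining members were each carried by 1 main transcript, or had too few reads to tell. ZMAT3-201, with 8936 bases, took 90.3% to 95% of ZMAT3 transcript reads, and PHLDA3-202 took 82.4% to 100%. In BBC3, BBC3-203 had 2.00, 2.45, 6.42 and 4.93 estimated reads, and 1 unannotated transcript with 3 exons, which begins 5 bases upstream of it, had 8.32 in all. Of 61 annotated FAS transcripts 8 had reads, and the leading one (ENST00000652046.1) had 6.52, 5.00, 1.82 and 1.00. Of 12 BAX transcripts 5 had reads, and none of them reached 5 reads in a library.

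Besides MDM2, a pair of genes that restrain p53 signalling were looked at. MDM4, a relative of MDM2 that holds p53 inactive, had 52, 81, 40 and 33 reads. The gene was level with the drug without the knockdown (log2 ratio -0.05) and lower with it (-0.78, exact binomial adjusted p = 0.0255). These ratios did not differ beyond counting error (difference -0.74, exact conditional p = 0.107, adjusted p = 0.426), and the length trend was left in. PPM1D, the phosphatase that ends p53 signalling and is itself a p53 target, had 38, 43, 36 and 23 reads, with ratios of 0.25 and -0.39 that did not pass.

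A list of 25 other p53 targets had 22 with a mean of 5 reads or more. Without the knockdown 0 of 22 were higher and 3 lower with the drug (DDB2, SPATA18 and CD82), against 9.59% and 12.1% of all genes, and with it 1 was higher (SESN2) and 5 lower (RRM2B, CCNG1, SPATA18, CD82 and ASCC3), against 13% and 21.2%. The medians were -0.14 and -0.49. By the rule over both pairs, which called 8.65% of all genes, SPATA18, which acts in mitochondrial quality control, and CD82, a membrane tetraspanin, were lower. SPATA18 had 24 and 28 reads without the drug and 3 and 7 with it, and CD82 had 21 and 9 without and 1 and 0 with it. SESN2, a relative of SESN1 that other stress pathways also raise, had 37, 19, 46 and 43 reads, so its lowest library was the knockdown. SESN2 and the genes called in 1 pair alone are named here because they passed, after their values were seen.

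The list of DNA damage sensors, kinases and p53 regulators had 15 of 15 members with enough reads. None were higher with the drug in either pair, against 9.59% and 13% of all genes. Without the knockdown 3 were lower and with it 7, against 12.1% and 21.2% of all genes, and the medians were -0.34 and -0.76. The length trend was left in here and in the other gene lists, and its part was not tested. Among genes of 6000 bases or more, 39.4% were called lower with the drug in the knockdown background. By the rule (8.65% of all genes) MRE11, a nuclease that senses broken ends, and BRCA1, a repair factor, were lower. MRE11 had 48 and 98 reads without the drug and 17 and 28 with it. BRCA1 had 122 and 100 without the drug, and 1 and 27 with it.

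The list of cell cycle genes held 12 that p21 represses through the DREAM complex, and all of them had enough reads. Here 11 were lower without the knockdown and 10 with it, against 12.1% and 21.2% of all genes, and 10 by the rule, against 8.65%. The medians were -3.08 and -2.87. MKI67 had 142 and 154 reads without the drug and 2 and 1 with it. TOP2A had 109 and 133 against 3 and 2, KIF23 had 60 and 78 against 2 and 1, and BIRC5 had 43 and 29 against 2 and 1. Both medians were larger in size than the log2 ratio of any of the 9 members. The same libraries lost progenitor marker reads, most of all PAX6, with 290 and 313 against 3 and 4. By the rule, 3 of the 5 progenitor markers with enough reads were lower. NES, with 64 and 53 against 36 and 42, passed in neither pair. The part of the progenitor loss in the cell cycle genes was not tested.

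Over the 4 libraries the genes whose pattern lay nearest to CDKN1A among the 8145 better covered ones were TMED2 (55, 61, 54 and 43 reads) and NLE1 (36, 41, 37 and 29). Their Euclidean distances in mean-centred log2 CPM were 0.03 for both after rounding. Nearest to MDM2 were ANKMY2 (51, 60, 26 and 20 reads, distance 0.04) and PPAT (94, 113, 45 and 38 reads, distance 0.09). With 4 libraries, such likeness is a description only.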

How the data were processed

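Long reads from 4 libraries, 1 per group, were analysed, grouped by their titles. The alignments were made with minimap2 on hg38, per the file headers, and the annotation names Bambu, which finds transcripts and divides reads among them. Versions and settings are not given in the sources used here. The deposited gene, transcript and full-length tables hold estimated counts, and the deposited table of uniquely assigned reads holds whole counts. Every gene count was even to within 0.00031, with 0 odd values, and 59.0% of nonzero values were odd after division by 2. A count of 2 was therefore taken as 1 read, and values were halved and rounded; the labels do not say why counts are even. The CPM values in the text were computed from these reads and TMM effective library sizes, and the authors' CPM table was not used. Symbols came from unversioned gene identifiers.

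The reads of a gene in 2 libraries were set against their effective sizes (edgeR 4.0.16) in an exact binomial test, two-sided, with log2 ratios at a pseudocount of 0.5 reads and Benjamini-Hochberg adjustment over all 13789 genes whose mean was 5 reads or more, or the 8145 at 20 or more. Ratio intervals are exact (Clopper-Pearson). The change of the drug ratio with the knockdown was tested by an exact conditional test of the 4 read numbers. Usage was tested by Fisher's exact test, for genes with 20 transcript reads or more on average and features with at least 10 reads. Usage calls needed an adjusted p under 0.05 and a shift in share of 10 percentage points or more, both in 1 direction in the 2 pairs. Where 0 reads were found, 3 reads set the upper limit. Alternatives were other scalings (total reads, DESeq2 1.42.0 size factors), minimums, pseudocounts and read tables, removal of the length trend (lowess), and additive edgeR and DESeq2 models. Scripts were tested on simulated data. Counts of PCR copies without molecular identifiers are not independent molecules.

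The members, gene lists and tests were chosen with earlier results of these data known. The named genes were the 9 members, MDM4 and PPM1D, up to 4 genes per list and direction past the rule in both pairs of a treatment, ranked by the smaller log2 ratio, the 2 nearest patterns of CDKN1A and MDM2, and transcripts with at least 10% of a gene's reads and at least 5 reads in a library. Unannotated transcripts and genes that overlap members were added after their values were seen. Adjustment over 13789 genes was used for single pairs so that all 9 members entered. A further gene fixed in that rule is not reported here.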

Additional observations from a re-analysis of the deposited data

How the results depend on the processing

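Under all alternatives that could be computed, 0 members were called by the rule over both pairs for azacytidine or the knockdown, and 0 by the tests of the difference between backgrounds and of transcript or first exon usage. In the pair of azacytidine with the knockdown, the main counts were 1 member higher and 3 lower. The higher count was 2 with counts as deposited and 0 with sums of transcript counts and with no minimum. It was also 0 with uniquely assigned counts, full-length counts or a minimum mean of 20 reads. These settings left BBC3 out for lack of reads, so they could not repeat its call. The lower count was 0 with full-length counts, which left 4 members to test. Both counts were 0 with the length trend removed and the test repeated. Counts as deposited gave 1 member lower with azacytidine without the knockdown (MDM2) and 1 higher with the knockdown without azacytidine (ZMAT3), against 0 in both, since 2 counts per read make the test too sensitive.

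Apart from the pseudocount, which does not enter the exact test, 252 single ratios of members were computed under an alternative. Of these 219 kept their direction and their side of the threshold, 8 no longer passed, 3 newly passed and 22 turned direction, all of the last for ratios that did not pass. Scaling to total reads moved the median of all genes by 0.18 for azacytidine with the knockdown and by -0.22 for the knockdown without azacytidine, and DESeq2 size factors moved the latter by -0.12. With these 2 scalings in turn, CDKN1A with the knockdown without azacytidine was -0.18 and -0.0747, MDM2 -0.16 and -0.0519, PHLDA3 -0.15 and -0.0470, and CDKN1A with azacytidine and the knockdown 0.16 and 0.0534. Total reads gave -0.0345 for ZMAT3 with the knockdown under azacytidine, and a pseudocount of 2 gave 0.0302 for CDKN1A with azacytidine and the knockdown. Sums of transcript counts gave, for azacytidine, -0.35 for CDKN1A and -0.24 for BAX without the knockdown and -0.0521 for SESN1 with it. For the knockdown they gave -0.0933 for CDKN1A, 0.20 for BBC3 and 0.36 for SESN1 without azacytidine, and 0.40 for BAX with it. Uniquely assigned counts gave -0.14 for CDKN1A with azacytidine alone, -0.11 with the knockdown alone and 0.0081 with the knockdown under azacytidine. Removal of the length trend gave -0.30 for MDM2 with the knockdown alone, and 0.17 for BAX and -0.0661 for ZMAT3 with the knockdown under azacytidine. The cause of these turns was not tested.

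No paired analysis was possible because the groups share only replicate number 1. Leaving out a replicate was not possible with 1 library per group. Usage tests on full-length counts held no member features. The depth limits most results: 5 of the 9 members had a mean under 20 reads, and the exact intervals of their ratios in single pairs span more than a 4-fold range.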
